A study of Arabidopsis thaliana with 12 samples.

Results

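The RNA bound by the fibrillarin paralogs FIB1 and FIB2 of Arabidopsis thaliana was compared using 8 of the 12 deposited CLIP-seq libraries. In CLIP-seq, ultraviolet light links a protein to the RNA it touches, the protein is immunoprecipitated and the recovered RNA is sequenced. The libraries were chosen by the group named in their titles: 4 GFP-FIB1 libraries were set against 4 CFP-FIB2 libraries, and the remaining 4 libraries, of plants with GFP alone, served as the background. All plants were Col-0 seedlings, 14 days old and crosslinked with ultraviolet light, and they differed by genotype label: GFP-FIB1, CFP-FIB2 or GFP. The fluorescent tag therefore differs along with the paralog, and no group with CFP alone was analysed here. The labels give neither the promoter of the fusions, nor whether the endogenous fibrillarin genes were intact, nor whether a line is a single clone. Whether the replicates were grown as separate cultures is not given, so each p-value rests on a library-to-library spread that may be technical.

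In box C/D small nucleolar ribonucleoproteins a guide snoRNA pairs with ribosomal RNA, and fibrillarin, the enzyme of the complex, methylates a ribose at the paired site. A box C/D snoRNA carries the C box near its 5′ end and the D box near its 3′ end, and its core proteins are fibrillarin, NOP56, NOP58 and a small protein that binds the fold formed by the boxes. H/ACA snoRNA guide pseudouridylation with the enzyme dyskerin in place of fibrillarin. Plants often encode snoRNA in clusters and in families of near-identical copies, and FIB1 and FIB2 each carry a U60 snoRNA in an intron.

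Neither the yield of box C/D snoRNA, nor any single snoRNA, nor the place of the peaks along a snoRNA differed between GFP-FIB1 and CFP-FIB2 past a test's threshold. Box C/D snoRNA made up 7.51% ± 5.0 of the reads in peaks with GFP-FIB1 and 5.43% ± 5.58 with CFP-FIB2, against 0.242% ± 0.207 with GFP (SD, n = 4 each). Libraries of the 2 paralogs with the same replicate number recovered the C/D snoRNA in nearly the same proportions in replicates 2, 3 and 4. Replicates 3 and 4 were alike within each paralog as well. In replicate 4 the GFP library had the same leading C/D gene as both fibrillarin libraries, so a shared leading gene was not particular to fibrillarin. The limits on a single C/D gene were wide: in the median the 95% interval of its level reached 2.86 log2 units to either side. With the replicate number as a block, a pairing that no label states, it reached 1.63.

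The sequences of the snoRNA that carried the strongest signal show where the reads lay. Sequences are from RefSeq TAIR10.1, 5′ to 3′ on the strand of the gene, and capitals mark bases covered by the gene's strongest peak in at least 2 of the 4 libraries of a group. AT3G47347 (chr3:17445810-17445886, plus strand), the snoRNA gene with the highest mean over the 8 libraries, has no name in the annotation and lies outside other annotated genes. AtsnoR29-1 (AT5G07725, chr5:20795723-20795828, plus strand) and AtsnoR4a (AT1G06237, chr1:10300489-10300565, plus strand) are box C/D genes outside other annotated genes, and in all 3 genes the capitals were identical in GFP-FIB1 and CFP-FIB2.
AT3G47347, GFP-FIB1 and CFP-FIB2: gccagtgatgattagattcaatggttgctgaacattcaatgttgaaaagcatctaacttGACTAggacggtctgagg
AtsnoR29-1, GFP-FIB1 and CFP-FIB2: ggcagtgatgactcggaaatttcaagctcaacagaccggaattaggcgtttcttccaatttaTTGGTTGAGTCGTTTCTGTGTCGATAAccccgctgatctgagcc
AtsnoR4a, GFP-FIB1 and CFP-FIB2: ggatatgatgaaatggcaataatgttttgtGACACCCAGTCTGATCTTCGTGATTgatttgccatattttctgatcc

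Each of these 3 genes holds the C box letters TGATGA at bases 6 to 11. The D box letters CTGA stand at bases 72 to 75 of AT3G47347, 100 to 103 of AtsnoR29-1 and 71 to 74 of AtsnoR4a. With bases counted from 1 at the gene's 5′ end, the strongest peak of these 3 genes lay between the boxes in all 8 libraries but 1: in GFP-FIB1 replicate 2 the peak of AT3G47347 also covered its D box and overhung the gene by 2 nt. AtsnoR23-1 (AT3G04165, chr3:7682639-7682749, plus strand) and AtsnoR43.6 (AT1G08347, chr1:22394549-22394634, minus strand) are shown because the capitals differed slightly between the groups.
AtsnoR23-1, GFP-FIB1: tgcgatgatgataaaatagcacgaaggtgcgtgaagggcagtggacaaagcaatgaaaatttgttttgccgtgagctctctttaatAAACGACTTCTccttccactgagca
AtsnoR23-1, CFP-FIB2: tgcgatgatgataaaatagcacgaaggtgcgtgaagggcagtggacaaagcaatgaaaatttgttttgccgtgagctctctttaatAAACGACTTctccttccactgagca
AtsnoR43.6, GFP-FIB1: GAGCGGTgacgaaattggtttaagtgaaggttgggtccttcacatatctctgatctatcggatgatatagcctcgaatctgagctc
AtsnoR43.6, CFP-FIB2: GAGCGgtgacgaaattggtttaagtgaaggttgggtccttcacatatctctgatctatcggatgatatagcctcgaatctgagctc

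In AtsnoR43.6 the capitals end inside or before its C box, TGACGA at bases 7 to 12 (1 mismatch to TGATGA), with a D box at bases 79 to 82. Its strongest peak started at the 5′ end in replicates 3 and 4 of both groups. In replicate 2 it covered bases 53 to 86 with GFP-FIB1 and 46 to 69 with CFP-FIB2, and in replicate 1 bases 36 to 40 in both.

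Depth, as reads in peaks, was 4193064, 10564158, 6997581 and 5815004 with GFP-FIB1 (replicates 1 to 4 in order) and 7986363, 11277580, 8760095 and 12844455 with CFP-FIB2. The number of called peaks was 85230.5 ± 41718 with GFP-FIB1 and 96386.75 ± 29798 with CFP-FIB2 (SD, n = 4 each, two-sided exact permutation p = 0.686, adjusted 0.686), and the covered length 937850.5 ± 468315 nt and 1156259 ± 233096 nt (p = 0.486, adjusted 0.686). Mean peak length was 10.9 ± 0.478 nt with GFP-FIB1 and 12.4 ± 1.89 nt with CFP-FIB2 (exact permutation p = 0.229, adjusted 0.686), with 14.9 nt in CFP-FIB2 replicate 4. Of 287 annotated snoRNA genes, 221.25 ± 40.9 had a peak with GFP-FIB1, 231.75 ± 27.0 with CFP-FIB2 and 158.5 ± 58.4 with GFP (SD, n = 4 each; GFP-FIB1 against CFP-FIB2, exact permutation p = 0.686, adjusted 0.686). By correlation over protein-coding genes GFP-FIB1 replicate 1 stood alone, CFP-FIB2 replicate 1 grouped with GFP replicates 1 and 2, and the other 8 libraries formed the third set. Of 6 mRNAs fixed as markers of green shoots 5 had a peak in all 8 libraries, and their summed level was 128 to 466 RPM (reads scaled to the same total of reads in peaks for every library) with GFP-FIB1, 91.4 to 447 RPM with CFP-FIB2 and 105 to 352 RPM with GFP. For 4 root markers the sums were 4.29 to 20.8 RPM, 5.53 to 28.3 RPM and 9.78 to 26.4 RPM in the same order of groups.

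Yield by RNA class came first, because a snoRNA level depends on what else fills the library. With GFP-FIB1, box C/D snoRNA took 0.661%, 12.1%, 7.13% and 10.2% of the peak reads of replicates 1 to 4, and with CFP-FIB2 0.904%, 13.2%, 5.68% and 1.94%. The GFP replicates held 0.0289%, 0.160%, 0.261% and 0.517%. Replicate 1 was low and replicate 2 high in both tagged groups, the ranges of the tagged groups overlapped, and all 8 tagged libraries lay above all 4 GFP libraries. The mean difference of 2.08 percentage points between the paralogs had a two-sided exact permutation p of 0.600 (adjusted 0.838 over 12 classes, with 0.0286 the smallest p possible), and GFP-FIB1 was higher in 2 of 4 same-number pairs. The counting error of these shares, as 95% Wilson intervals, was at most 0.0246 points on either side, and such intervals cover counting error only.

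H/ACA snoRNA took 0.0460% ± 0.0599 of the reads with GFP-FIB1, 0.0472% ± 0.0579 with CFP-FIB2 and 0.0136% ± 0.00708 with GFP (SD, n = 4 each; GFP-FIB1 against CFP-FIB2, exact permutation p = 0.971, adjusted 0.971). Their level was set mostly by replicate 2, at 0.136% with GFP-FIB1 and 0.132% with CFP-FIB2. The snoRNA left without a box class took 0.537% ± 0.342 with GFP-FIB1, 0.366% ± 0.347 with CFP-FIB2 and 0.0271% ± 0.0153 with GFP (exact permutation p = 0.543, adjusted 0.838). For every H/ACA read there were 60.6, 89.0, 386 and 537 C/D reads with GFP-FIB1 (replicates 1 to 4 in order), against 89.9, 99.92, 161 and 175 with CFP-FIB2, and 7.19 to 40.7 in the GFP libraries. This ratio does not depend on the total of a library, and its group ranges overlapped (means 268 ± 232 and 131 ± 42.7, exact permutation p = 0.429).

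**Figure D1:**
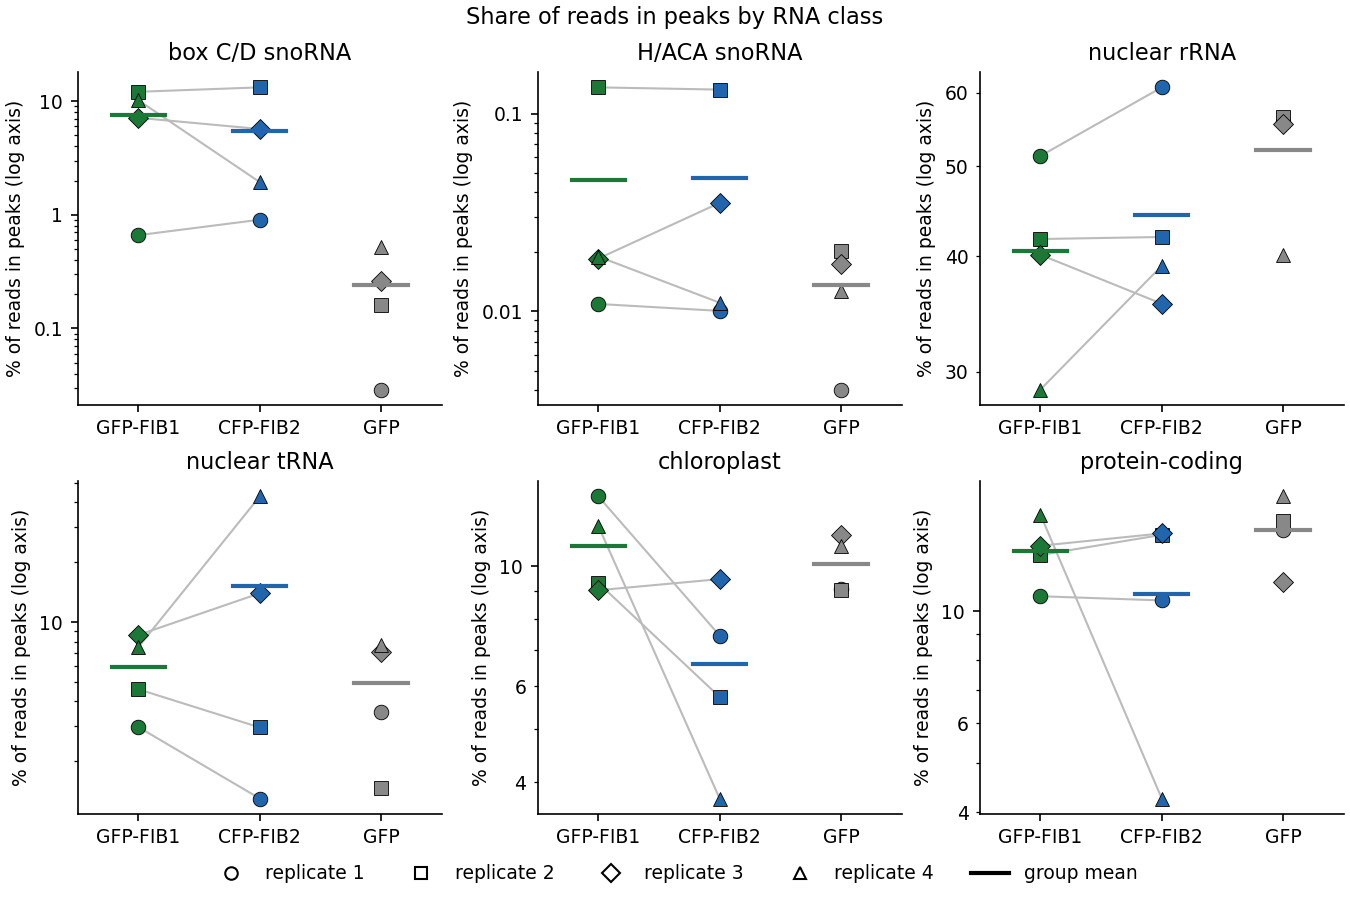
Share of the reads in peaks taken by 6 RNA classes in each library, on log axes, by group. Points are libraries, marker shapes are replicate numbers, grey lines join GFP-FIB1 and CFP-FIB2 libraries of the same number and bars are group means. C/D shares are nearly level across the paralogs in replicates 1 to 3, while CFP-FIB2 replicate 4 falls to 1.94% and holds 42.9% tRNA.

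The other classes overlapped between the paralogs too. Nuclear rRNA, the substrate of the C/D guides, took 40.5% ± 9.26 with GFP-FIB1, 44.3% ± 11.3 with CFP-FIB2 and 52.0% ± 7.93 with GFP (exact permutation p between the paralogs 0.629, adjusted 0.838), so the GFP group had the highest mean of the 3. Of the rRNA reads, 18S held 27.6% ± 1.39 with GFP-FIB1 and 31.6% ± 10.1 with CFP-FIB2, 5.8S 14.0% ± 2.33 and 12.3% ± 1.66, and the 3600 nt past 5.8S, where 25S lies, 58.4% ± 2.40 and 56.0% ± 11.4 (exact permutation p 0.886, 0.314 and 0.971, adjusted 0.971, 0.629 and 0.971 over 4 parts). CFP-FIB2 replicate 4 stood apart with 46.7% in 18S, against 25.7% to 27.5% in the other CFP-FIB2 libraries.

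Nuclear tRNA took 5.93% ± 2.60 with GFP-FIB1 and 15.3% ± 19.3 with CFP-FIB2 (exact permutation p = 0.514, adjusted 0.838), with 42.9% in CFP-FIB2 replicate 4. A single tRNA-Glu gene, AT1G09110 (chromosome 1, 2939417 to 2939488, plus strand), held 74.0% of the tRNA reads of that library. It stood at 461, 23024, 59475 and 44456 RPM in GFP-FIB1 replicates 1 to 4, at 198, 14593, 93709 and 317542 RPM in CFP-FIB2 replicates 1 to 4, and at 687 to 53608 RPM with GFP. Chloroplast RNA gave the smallest p of the 12 classes: 10.9% ± 2.11 with GFP-FIB1, 6.59% ± 2.44 with CFP-FIB2 and 10.1% ± 1.22 with GFP (exact permutation p = 0.0857, adjusted 0.838). Its rRNA part held 9.70%, 7.12%, 6.34% and 7.12% with GFP-FIB1 (replicates 1 to 4 in order), 6.71%, 4.29%, 6.25% and 2.05% with CFP-FIB2 and 5.69% to 7.32% with GFP. The unpaired exact permutation p between the paralogs was 0.0571, unadjusted. It was higher with GFP-FIB1 in 4 of 4 same-number pairs, with a paired exact permutation p of 0.125, the smallest that 4 pairs can give. The C/D difference of 2.08 percentage points depended on single libraries. It was 0.552 points without GFP-FIB1 replicate 2, 0.566 without CFP-FIB2 replicate 1, 0.910 without CFP-FIB2 replicate 4 and 1.19 without GFP-FIB1 replicate 4, but 4.36 without GFP-FIB1 replicate 1 and 4.67 without CFP-FIB2 replicate 2. Without both libraries of a number it was 2.85, 3.15, 2.29 and 0.0235 points for replicates 1 to 4.

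For single regions, reads were summed by region name and compared with limma over the 25278 region names that passed the filter on low values (16829 genes and 8449 intergenic stretches). None passed an adjusted p of 0.05 (0%), with a smallest limma adjusted p of 1.00, and 205 stood at an unadjusted p under 0.05: 156 higher with GFP-FIB1 (0.617%) and 49 lower (0.194%). With the replicate number as a block limma again called 0 (0%), a smallest adjusted p of 0.804 and 905 at an unadjusted p under 0.05, of which 716 were higher with GFP-FIB1 (2.83%) and 189 lower (0.748%). All 4 GFP-FIB1 libraries lay above all 4 CFP-FIB2 libraries in 157 regions (0.621%) and below them in 34 (0.135%). None of the 231 tested snoRNA genes was separated in either direction, and none reached an unadjusted p under 0.05 without the block. With the block 8 of them were higher with GFP-FIB1 at an unadjusted limma p under 0.05 and 1 was lower, and 0 were called. The filter had passed 154 of the 168 annotated snoRNA genes classed as C/D, 23 of the 36 classed as H/ACA and 54 of the 83 with no box class.

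On the log2(RPM + 1) scale, GFP-FIB1 over CFP-FIB2, the fold change of the tested C/D genes was 0.61 in the median, with quartiles of 0.23 and 0.91, and 133 were positive and 21 negative. Over all features tested the median was 0.16, with 15855 positive and 9423 negative. H/ACA genes had a median of −0.05 (10 positive, 13 negative) and unassigned genes of 0.14 (34 positive, 20 negative). The 94 tested C/D genes with no 25-nt word found elsewhere in the genome had a median of 0.57. Under TMM scaling the C/D median was 0.12 and that of all features −0.09. The H/ACA median was 0.53 with overlapping peaks reduced, and the unassigned median −0.15 under TMM, so the sign of both depends on the processing.

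**Figure D2:**
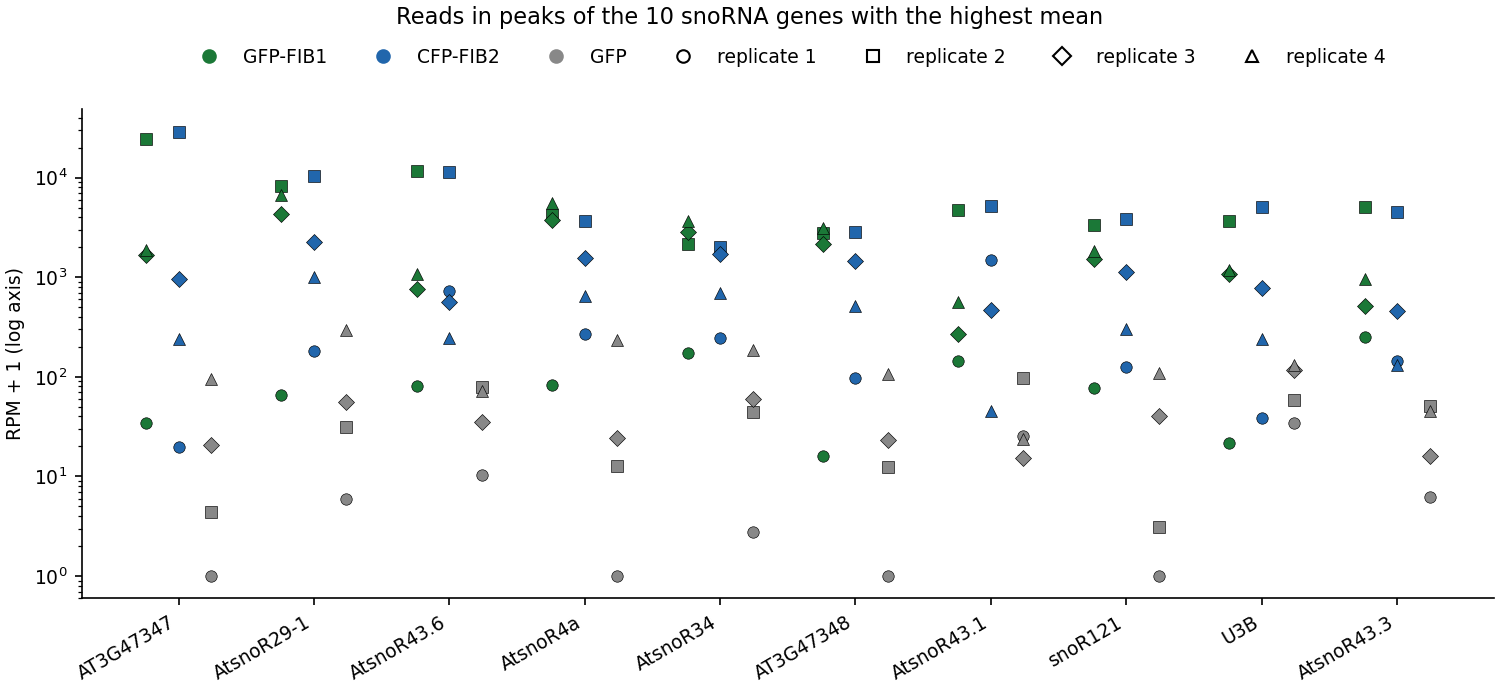
Level in RPM, plus 1, on a log axis, for the 10 snoRNA genes with the highest mean over the 8 tagged libraries. Colours are groups (GFP-FIB1 left, CFP-FIB2 middle, GFP right) and shapes are replicate numbers. Green and blue markers of a gene overlap in range. Squares (replicate 2) lie at the top of most genes in both tagged groups, and circles (replicate 1) at the bottom of most. Replicate 4 is instead the highest GFP-FIB1 library for AtsnoR4a, AtsnoR34 and AT3G47348. It is the lowest CFP-FIB2 library for AtsnoR43.6, AtsnoR43.1 and AtsnoR43.3.

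The 10 snoRNA genes with the highest mean were all box C/D. AT3G47347 held 33.6, 24533, 1663 and 1870 RPM in GFP-FIB1 replicates 1 to 4, 18.9, 28918, 953 and 237 RPM in CFP-FIB2 replicates 1 to 4, and 0 to 94.4 RPM with GFP, where 0 means that no peak was called. Replicate 2 was the highest in both groups by more than the paralogs differed, and the log2 fold change was 1.08 ± 1.56 (SE, 95% interval −2.05 to 4.22, limma adjusted p = 1.00). AtsnoR29-1 held 64.4, 8266, 4282 and 6692 RPM with GFP-FIB1, 181, 10444, 2271 and 1000 RPM with CFP-FIB2 and 4.90 to 295 RPM with GFP. GFP-FIB1 was lower in replicates 1 and 2 and higher in replicates 3 and 4 (log2 fold change 0.46, 95% interval −2.14 to 3.06, limma adjusted p = 1.00).

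AtsnoR4a, of whose 25-nt words 47.2% occur elsewhere in the genome, so that its reads may belong to copies, held 82.0, 4189, 3747 and 5546 RPM with GFP-FIB1, 266, 3658, 1551 and 643 RPM with CFP-FIB2 and 0 to 231 RPM with GFP (log2 fold change 0.72 ± 1.28, SE, limma adjusted p = 1.00). AtsnoR34 (AT1G05247, chromosome 1, 5686093 to 5686179, minus strand, overlapping an exon of the noncoding gene AT1G16635) held 172, 2175, 2832 and 3627 RPM with GFP-FIB1 and 244, 1991, 1720 and 688 RPM with CFP-FIB2. In both genes GFP-FIB1 was lower in replicate 1 and higher in replicates 2, 3 and 4. AT3G47348 (chromosome 3, 17445963 to 17446047, plus strand) held 15.02, 2759, 2141 and 3100 RPM with GFP-FIB1 and 96.5, 2809, 1439 and 510 RPM with CFP-FIB2.

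The named AtsnoR43 copies varied widely between the libraries of a group. AtsnoR43.6 held 80.6, 11612, 758 and 1067 RPM with GFP-FIB1 and 722, 11334, 559 and 242 RPM with CFP-FIB2. AtsnoR43.1 (AT1G04527, chromosome 1, 2111064 to 2111147, minus strand) held 143, 4746, 271 and 564 RPM with GFP-FIB1 and 1475, 5146, 469 and 44.8 RPM with CFP-FIB2, and AtsnoR43.3 (AT2G08390, chromosome 2, 12975859 to 12975945, minus strand) 251, 5055, 516 and 949 RPM and 142, 4503, 454 and 130 RPM. Replicate 2 was the highest of its group in each of these 3 genes, and the log2 fold changes were −0.13 ± 1.36, −0.16 ± 1.41 and 1.00 ± 1.37 (SE, limma adjusted p = 1.00 for each). The last of the leading genes outside U3, snoR121 (AT3G03175, chromosome 3, 5387184 to 5387268, plus strand), held 1689 ± 1347 RPM with GFP-FIB1 and 1338 ± 1695 RPM with CFP-FIB2 (SD, n = 4 each).

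U3 snoRNA is a box C/D RNA that is needed for cleavage of the ribosomal precursor. U3B (AT5G53902, chromosome 5, 21887966 to 21888667, plus strand) held 20.5, 3674, 1086 and 1178 RPM with GFP-FIB1, 37.2, 5072, 773 and 240 RPM with CFP-FIB2 and 33.6 to 130 RPM with GFP. In replicate 1 of both tagged groups it lay within or below the GFP range, and in replicates 2 to 4 above it. U3D (AT5G54075, chromosome 5, 21945349 to 21945709, minus strand), of whose words 62.9% occur elsewhere, held 1080 ± 691 RPM with GFP-FIB1, 710 ± 805 RPM with CFP-FIB2 and 60.3 ± 49.2 RPM with GFP (SD, n = 4 each). SNOR108 (AT5G41471, chromosome 5, 16598796 to 16598905, plus strand) held 57.2, 25.9, 89.7 and 106 RPM with GFP-FIB1, 90.8, 34.5, 69.5 and 17.9 RPM with CFP-FIB2 and 0 to 3.85 RPM with GFP. In neither tagged group was replicate 1 its lowest library. U3B, U3D and SNOR108 had log2 fold changes of 0.37 ± 1.495, 0.75 ± 1.39 and 0.45 ± 1.35 (SE, limma adjusted p = 1.00 for each).

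Each of the H/ACA genes with the highest means was highest in replicate 2 of both groups. The gene snoR151 (AT4G06705, chromosome 4, 9715045 to 9715195, minus strand, inside an intron of the protein-coding gene AT4G17390) held 9.54, 314, 28.9 and 21.8 RPM with GFP-FIB1 and 2.63, 288, 86.5 and 55.3 RPM with CFP-FIB2. AtU65-2 (AT2G04955, chromosome 2, 2184672 to 2184820, minus strand) held 3.34, 146, 40.6 and 48.3 RPM with GFP-FIB1 and 2.75, 145, 52.4 and 9.58 RPM with CFP-FIB2, and snoR144 (AT5G00750, chromosome 5, 142346 to 142489, minus strand) 0, 190, 5.43 and 3.27 RPM and 17.7, 196, 9.47 and 1.48 RPM. Their log2 fold changes were −0.30 ± 1.43, 0.52 ± 1.35 and −1.05 ± 1.26 (SE, limma adjusted p = 1.00 for each), and GFP held at most 19.1 RPM of any of them.

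Reads named for the fibrillarin mRNAs lay over the U60 snoRNA in their introns. FIB1 (AT5G52470, chromosome 5, 21294147 to 21296819, plus strand) had 64.2, 243, 292 and 558 RPM with GFP-FIB1 and 65.7, 254, 221 and 85.0 RPM with CFP-FIB2, and in these 8 libraries none of these reads lay outside the U60.1F gene. GFP libraries had FIB1-named reads over U60.1F as well, at 29.7, 37.3, 2.44 and 18.7 RPM. FIB2 (AT4G25630, chromosome 4, 13074090 to 13076432, plus strand) had 0, 18.1, 39.9 and 61.7 RPM with GFP-FIB1 and 2.63, 17.2, 37.8 and 13.8 RPM with CFP-FIB2, with at most 2.74 RPM outside the U60.2F gene, and GFP libraries had 1.75, 10.05, 0 and 3.35 RPM over U60.2F under this name. The lists thus give no reading of the fibrillarin transgenes that could check the labels. The U60 sequences are shown because these snoRNA lie within the paralogs compared, U60.1F (AT5G52471, chr5:21295736-21295809, plus strand) in FIB1 and U60.2F (AT4G25631, chr4:13075563-13075635, plus strand) in FIB2.
U60.1F, GFP-FIB1: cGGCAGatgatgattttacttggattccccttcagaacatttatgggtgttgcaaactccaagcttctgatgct
U60.1F, CFP-FIB2: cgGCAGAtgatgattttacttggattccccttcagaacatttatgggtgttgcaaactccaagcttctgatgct
U60.2F, GFP-FIB1: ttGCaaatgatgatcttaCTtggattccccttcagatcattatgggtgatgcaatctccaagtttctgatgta
U60.2F, CFP-FIB2: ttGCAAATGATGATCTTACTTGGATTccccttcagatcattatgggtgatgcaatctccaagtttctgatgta

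Capitals again mark bases under the strongest peak in at least 2 libraries of the group, and in U60.1F they stand before the C box at bases 8 to 13. Single libraries differed. In replicate 2 the strongest U60.1F peak lay past the C box, at bases 15 to 26 with GFP-FIB1 (803 reads) and 17 to 26 with CFP-FIB2 (1132 reads). In replicate 3 it reached into the C box, at bases 2 to 9 and 3 to 13. In replicates 1 and 4 it lay before the C box in both groups. The U60.2F capitals rest on few reads. Its strongest peak held 97, 139 and 5 reads in GFP-FIB1 replicates 2 to 4, and replicate 1 had no peak. With CFP-FIB2 it held 16, 126, 158 and 111 reads in replicates 1 to 4. It covered bases 3 to 26 in GFP-FIB1 replicate 2 and in CFP-FIB2 replicate 4. Reads named for U60.1F itself stood at 44.4, 79.6, 164 and 301 RPM with GFP-FIB1, 60.7, 102, 49.2 and 53.3 RPM with CFP-FIB2 and 0 to 1.47 RPM with GFP. Reads named for U60.2F were fewer, with 0, 9.66, 22.3 and 0.860 RPM with GFP-FIB1, 2.00, 12.7, 18.04 and 8.64 RPM with CFP-FIB2 and no peak of that name with GFP. Peaks named for the host and for the snoRNA cover the same bases, so their reads may be the same and were not added. The log2 fold changes were 0.85 ± 1.39 for U60.1F and 0.75 ± 1.41 for FIB1 (SE, limma adjusted p = 1.00 for both). They were −1.01 ± 0.97 for U60.2F and 0.09 ± 1.21 for FIB2 (SE, limma adjusted p = 1.00 for both), so the sign over U60.2F depends on which name is read.

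Of the 9 listed genes of C/D core proteins, the fibrillarins included, 5 passed the filter, with 4 positive and 1 negative and 0 called. Their median log2 fold change was 0.23 against 0.16 for all features. FIB1 and FIB2 were among the positive genes. Their reads in the tagged libraries lay wholly or mostly over U60, so this median is not one of mRNA alone. NOP56 (AT1G56110, chromosome 1, 20984273 to 20986952, minus strand) held 7.63, 1.70, 141 and 199 RPM with GFP-FIB1, 5.76, 0.798, 330 and 87.1 RPM with CFP-FIB2 and 0.337 to 211 RPM with GFP, so the highest GFP library lay above 7 of the 8 tagged libraries. AT5G27120, listed as a NOP58 gene, held 6.55 ± 5.25 RPM with GFP-FIB1, 3.33 ± 3.58 RPM with CFP-FIB2 and 4.601 ± 2.22 RPM with GFP (SD, n = 4 each). For H/ACA proteins 2 of 5 genes were tested (1 positive, 1 negative), and both nucleolin genes, NUC-L1 and NUC-L2, were tested and positive, with no call.

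The non-snoRNA regions with the largest positive fold change among those without overlap between the groups, at a mean of at least 10 RPM, were chosen by that separation, so their values are a description. A mitochondrial intergenic stretch held 39.4, 13.0, 70.5 and 10.1 RPM with GFP-FIB1, 2.13, 3.72, 4.22 and 2.57 RPM with CFP-FIB2 and 3.21 to 65.6 RPM with GFP. The GFP range thus overlaps both groups. GER1 (AT1G72610, chromosome 1, 27339114 to 27340044, minus strand), a germin-like protein gene, held 17.8 ± 4.77 RPM with GFP-FIB1, 7.22 ± 4.01 RPM with CFP-FIB2 and 4.84 ± 1.94 RPM with GFP (SD, n = 4 each). AT3G14360, AT2G05350 and a second mitochondrial stretch completed the set, with means of 18.4 to 22.5 RPM with GFP-FIB1, 4.04 to 8.38 RPM with CFP-FIB2 and up to 14.9 RPM with GFP. No region at that level lay lower in all 4 GFP-FIB1 libraries.

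Presence of a called peak was compared next, without the read number. A peak in 4 of 4 GFP-FIB1 and 0 of 4 CFP-FIB2 libraries was found for 21 of 77911 region names (0.027%), and the opposite for 90 (0.116%). None of them was a snoRNA, their highest group means were 2.52 and 2.74 RPM, and Fisher's exact test gave p = 0.0286 for each such region, with an adjusted p of 1.00. In all 8 libraries 136 snoRNA genes had a peak: 111 box C/D, 8 H/ACA and 17 without a box class.

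The difference in C/D genes lay mostly in replicate 4. Within replicate 1, 68 of the 154 C/D genes were higher with GFP-FIB1 and 76 lower, and within replicate 2, 65 were higher and 89 lower. Within replicate 3, 114 were higher and 39 lower, with a median log2 difference of 0.24, and within replicate 4, 150 were higher and 4 lower, with a median of 2.35. The median over all features was 1.02 in replicate 4, and it was 0, 0.16 and −0.28 in replicates 1, 2 and 3. With tRNA left out of the total, 150 C/D genes were still higher in replicate 4, with a median of 1.68 against 0.70 for all features. Without both replicate 4 libraries the median of the C/D genes stood 0.13 log2 units above that of all features, in place of 0.44.

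**Figure D3:**
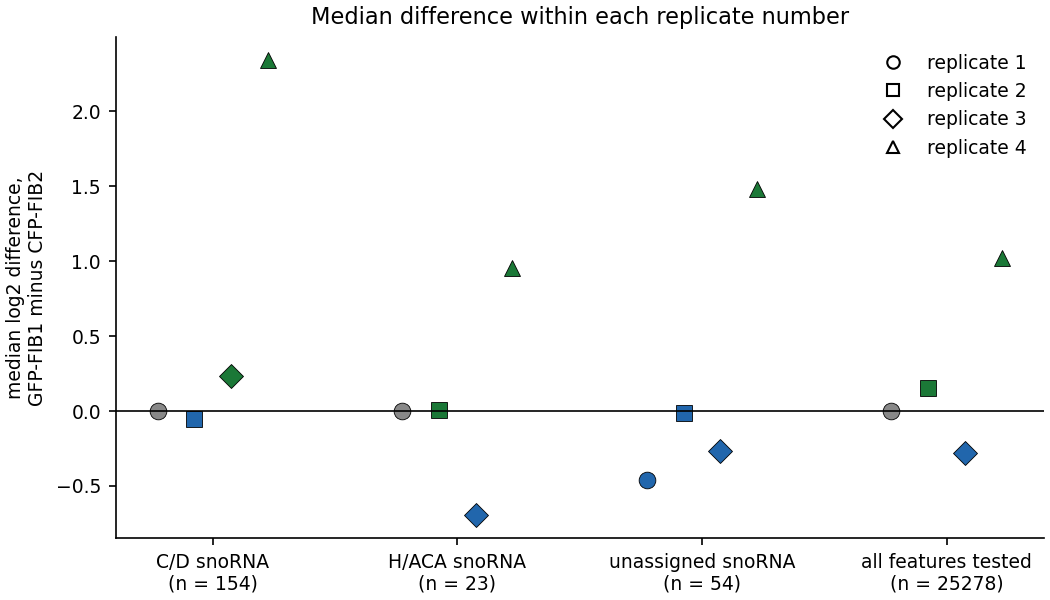
Median log2 difference between the GFP-FIB1 and the CFP-FIB2 library of the same replicate number, for 3 snoRNA classes and all features tested. Shapes are replicate numbers, green lies above 0, blue below 0 and grey at 0. Replicate 4 is the highest in every class, at 2.35 for C/D snoRNA and 1.02 for all features.

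Since yield varied so widely, the make-up of the C/D reads was compared on its own, as each gene's share of a library's C/D reads, over 156 genes. With limma none was called (0%), 0 stood at an unadjusted p under 0.05 and the smallest adjusted p was 0.993. The replicate block called 0 as well, with 1 gene at an unadjusted p under 0.05 (AT1G20015, log2 difference −0.70, smallest adjusted p 0.735). The median log2 difference was 0.04 (quartiles −0.42 and 0.40), and 120 genes (76.9%) lay within 2-fold between the group means. The 95% interval of a gene reached 2.46 log2 units to either side in the median, and 1.08 with the block.

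Library by library, C/D make-up put the libraries of replicate 2 together and those of replicates 3 and 4 together. The replicate 1 libraries did not form a close set. CFP-FIB2 replicate 1 was nearly as close to CFP-FIB2 replicate 2 (Pearson r = 0.541) as to GFP-FIB1 replicate 1. Across the 156 genes, which are not independent replicates and share each library's depth, GFP-FIB1 and CFP-FIB2 libraries of the same number had a Pearson r of 0.580, 0.985, 0.964 and 0.944 in replicates 1 to 4. In these pairs 37.8%, 95.5%, 88.5% and 92.9% of the genes lay within 2-fold. The replicate 1 libraries held the fewest C/D reads of the tagged libraries, 27709 with GFP-FIB1 and 72220 with CFP-FIB2. Between different numbers across the paralogs the median r was 0.603 (0.356 to 0.961). Within GFP-FIB1 it was 0.565 (0.397 to 0.966) and within CFP-FIB2 0.605 (0.331 to 0.946), and the top of each of these ranges was the pair of replicates 3 and 4, or those numbers across the paralogs.

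The leading genes show the same order. The 10 leading C/D genes of a GFP-FIB1 library and its CFP-FIB2 partner had 6, 10, 8 and 9 genes in common in replicates 1 to 4. GFP-FIB1 replicate 3 shared 8 with CFP-FIB2 replicate 4, and GFP-FIB1 replicate 4 shared 9 with CFP-FIB2 replicate 3, so replicates 3 and 4 were not separated. AT3G47347 made up 20.3% of the C/D reads in GFP-FIB1 replicate 2 and 21.9% in CFP-FIB2 replicate 2, but 0.509%, 2.33% and 1.84% in GFP-FIB1 replicates 1, 3 and 4. In replicate 1 the leading gene was AtsnoR28-1b (AT5G02665) with GFP-FIB1, at 9.96% of the C/D reads, and AtsnoR43.1 with CFP-FIB2, at 16.3%. AtsnoR28-1b held 3.90% in CFP-FIB2 replicate 1, and 0.00525%, 0.0269% and 0.0482% in GFP-FIB1 replicates 2 to 4. In GFP replicates 1 to 4 AtsnoR29-1 held 1.69%, 1.91%, 2.12% and 5.71% of the C/D reads, and AtsnoR4a 0%, 0.731%, 0.892% and 4.47%. These GFP libraries held 827, 7656, 30931 and 38597 C/D reads, so the shares in replicates 1 and 2 rest on few reads. In replicate 4 AtsnoR29-1 held 6.58% with GFP-FIB1 and 5.17% with CFP-FIB2, and AtsnoR4a 5.45% and 3.32%. For both genes GFP replicate 4 thus lay between its fibrillarin partners. In these bulk libraries, more cells with an RNA, more of it per cell and better recovery of it cannot be told apart.

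**Figure D4:**
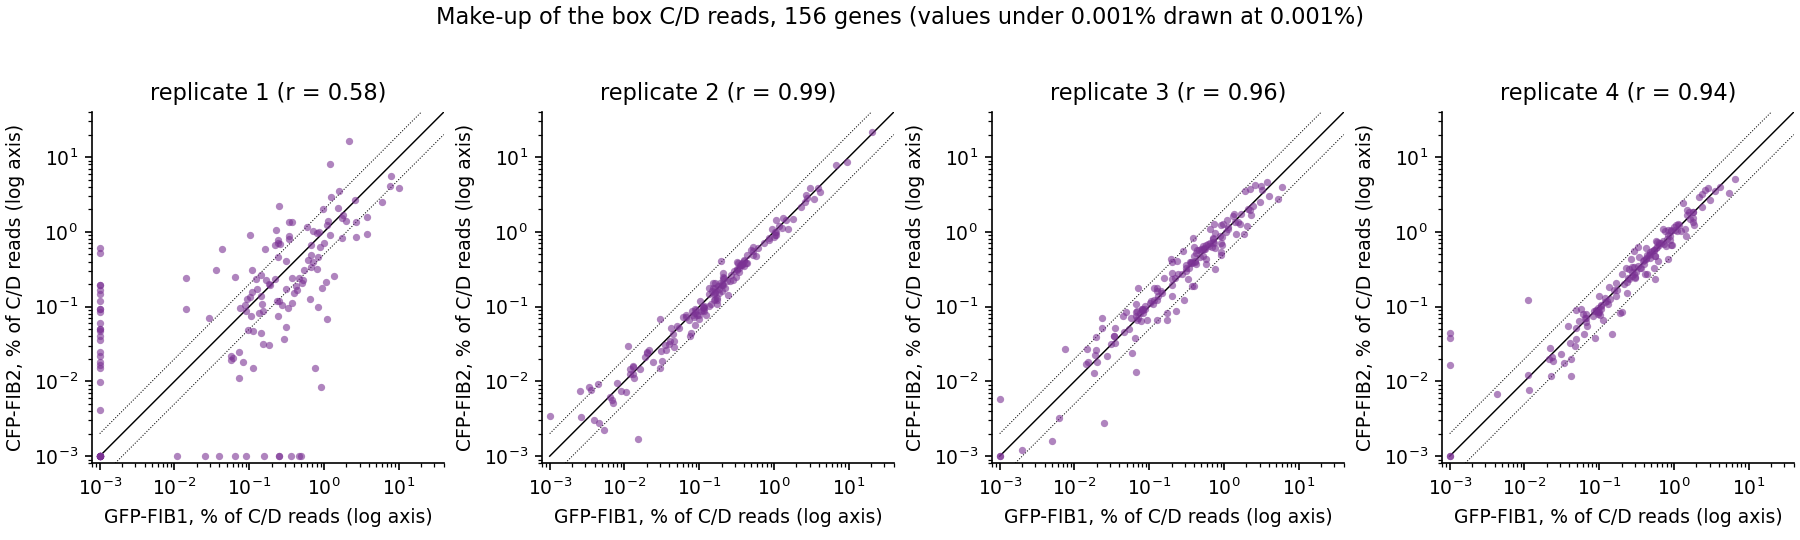
Share of the C/D reads held by each of 156 C/D genes in the GFP-FIB1 library (x axis) and the CFP-FIB2 library (y axis) of the same replicate number, on log axes. The solid line marks equal shares and the dotted lines 2-fold. Points hug the line in replicates 2, 3 and 4 and scatter in replicate 1, where 37.8% lie within 2-fold.

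Peak position was read as the read-weighted centre of a gene's peaks, in percent of the gene's length from its 5′ end, over the 136 snoRNA genes with a peak in all 8 libraries. None differed between the paralogs by limma (0%), with 1 gene at an unadjusted p under 0.05 and a smallest adjusted p of 0.998. In 0 genes (0%) were all GFP-FIB1 positions later and in 0 (0%) all earlier than those of CFP-FIB2. With the replicate block 0 were called, 4 stood at an unadjusted p under 0.05, and the smallest adjusted p was 0.675. The median shift was 0.06 percentage points of gene length (quartiles −4.84 and 3.46, 69 later and 67 earlier), and 75 genes shifted by less than 5 points. The 95% interval of a gene reached 28.7 points to either side in the median, and 10.6 with the block.

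The median position over these genes was 32.2%, 67.2%, 58.3% and 60.2% in GFP-FIB1 replicates 1 to 4, 44.8%, 66.8%, 56.1% and 56.8% in CFP-FIB2 replicates 1 to 4, and 61.6% to 67.3% with GFP (two-sided exact permutation p between the paralogs 0.943). Replicate 1 lay nearest the 5′ end in both tagged groups. Positions of same-number libraries correlated across genes with a median r of 0.871 (0.373 to 0.955), and their covered snoRNA bases overlapped with a Jaccard index, the bases shared over the bases covered by either, of 0.641 in the median (0.160 to 0.682). Across the paralogs at different numbers the median index was 0.278, within GFP-FIB1 0.233 and within CFP-FIB2 0.281. Replicates 3 and 4 were alike in any combination across the paralogs (0.618 to 0.664).

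Summed over C/D genes, the 5′-most 10% of the gene held 51.3% of the C/D reads in GFP-FIB1 replicate 1 and 28.4% in CFP-FIB2 replicate 1, but 2.62% and 3.06% in replicate 2, 11.9% and 11.3% in replicate 3, and 11.8% and 12.8% in replicate 4, with GFP-FIB1 given before CFP-FIB2. In that 5′-most 10% GFP replicates 1 to 4 held 2.54%, 1.23%, 31.5% and 12.7%. The peak of the profile lay between 70% and 90% of the gene in replicates 2 to 4 of both fibrillarin groups. GFP replicates 1, 2 and 4 also had their highest 10% there, and GFP replicate 3 had it at the 5′ end. The stretch from 70% to 90% held 35.8%, 27.1%, 26.4% and 41.2% in GFP replicates 1 to 4. In replicates 3 and 4 it held 39.9% and 40.7% with GFP-FIB1 and 43.5% and 36.9% with CFP-FIB2. A maximum in this stretch was thus not particular to fibrillarin. In replicate 2 the highest 10% differed, with 43.9% of the reads at 80% to 90% in GFP-FIB1 and 51.1% at 70% to 80% in CFP-FIB2. The whole stretch from 70% to 90% held 69.2% and 67.0%. AT3G47347 alone held 20.3% and 21.9% of the C/D reads of these libraries, at a mean position of 89.0% and 79.2% of the gene. Its strongest peak covered bases 59 to 79 in GFP-FIB1 replicate 2, with 259166 reads. In CFP-FIB2 replicate 2 it covered bases 59 to 64, with 326107 reads. Both peaks began at the same base and differed in their called end. In replicates 3 and 4 the peak began at base 60 and ended at 63 or 64 in both groups, and in replicate 1 it covered bases 25 to 26 in both.

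**Figure D5:**
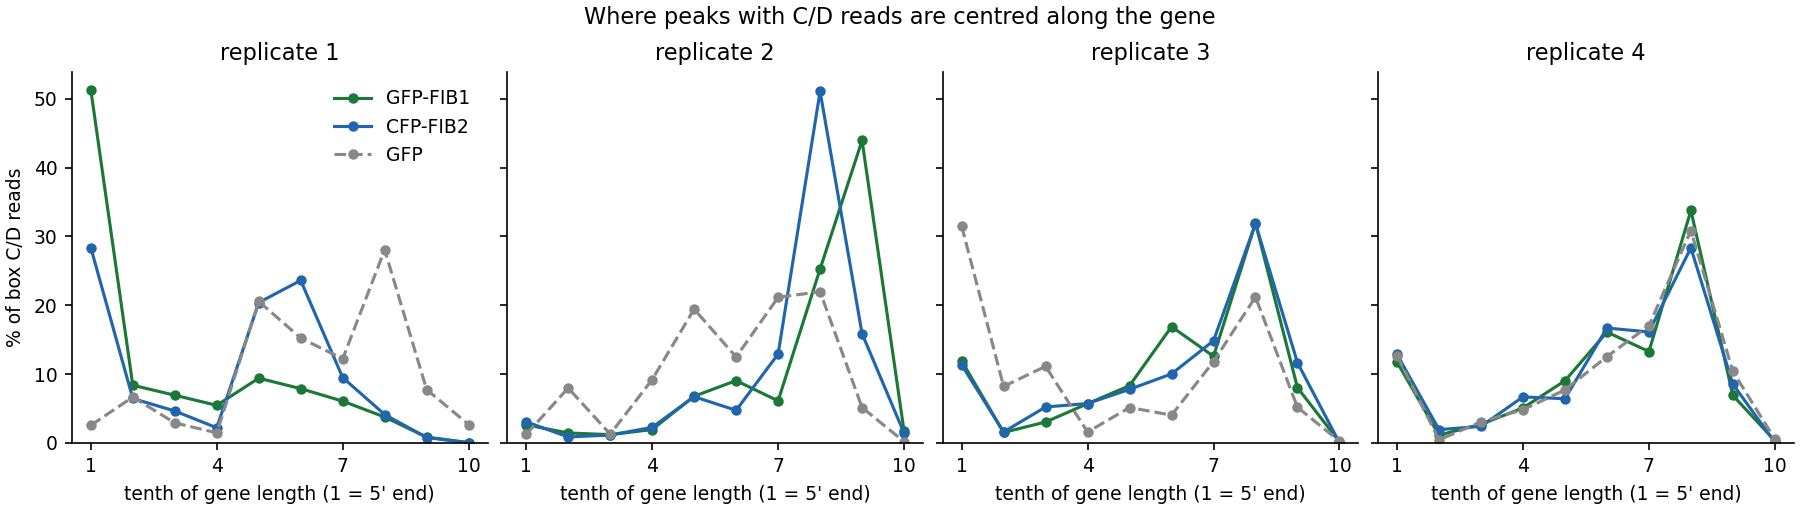
Percent of a library's box C/D reads in peaks centred in each 10% of gene length, from the 5′ end, by replicate number. Solid lines are GFP-FIB1 (green) and CFP-FIB2 (blue) and dashed grey lines are the GFP library of that number. The tagged lines nearly coincide in replicates 3 and 4 and peak at adjacent positions in replicate 2, while replicate 1 is highest at the 5′ end, at 51.3% and 28.4%.

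AtsnoR29-1 and AtsnoR4a showed the same order at single bases. The strongest peak of AtsnoR29-1 covered bases 63 to 89 in replicates 3 and 4 and 75 to 93 in replicate 2 in both groups, and in replicate 1 bases 35 to 36 with GFP-FIB1 and 64 to 89 with CFP-FIB2. In AtsnoR4a it began at base 31 in replicates 3 and 4, 35 in replicate 2 and 33 in replicate 1 in both groups. The strongest peak of AtsnoR23-1 began at different bases in replicate 1 only, lying at bases 86 to 90 with GFP-FIB1 and 2 to 6 with CFP-FIB2, where the peaks held 95 and 100 reads. Recovery along the rRNA was alike in the same libraries: over 112 windows of 50 nt, which share each library's depth, same-number libraries of the paralogs correlated at a median r of 0.708 (0.592 to 0.818), other numbers at 0.442, GFP-FIB1 libraries among themselves at 0.414 and CFP-FIB2 libraries at 0.383. The highest r was 0.853, between GFP-FIB1 replicates 3 and 4, and GFP-FIB1 replicate 4 correlated at 0.777 with CFP-FIB2 replicate 3 and at 0.690 with CFP-FIB2 replicate 4.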

How the data were processed

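CLIP-seq peak lists of 12 libraries of Col-0 seedlings were used, 4 per group. Each deposited list gives, for every peak, its position, the p-value of the authors' peak caller and, in its name, a region and a number of reads. The lists do not state how the read count of a peak was made. The submitters' processing notes name DESeq2. For the aligner, peak caller and genome build, names are not given in the sources at hand. Of the peaks named for a gene and matched to TAIR10.1, 99.91% lay within that gene, so gene coordinates are those of TAIR10.1.

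The box class of a snoRNA gene was taken from its annotation or, where that gave none, from its sequence. C/D then needed TGATGA, with at most 1 mismatch, near the 5′ end and CTGA in the last 25 nt. H/ACA needed at least 110 nt, ACA near the 3′ end and an H box pattern in the middle. Genes with neither stayed unassigned and may belong to either class. Reads were summed by region name and scaled to the reads in peaks (RPM). No count model was run, since an uncalled region has no count. Regions with at least 1.19 RPM (10 reads at the median depth) in 4 libraries were tested with limma 3.58.1 (R 4.3.3) on log2(RPM + 1) with Benjamini-Hochberg adjustment, a fit that was tested on simulated data. Single values were tested with two-sided exact permutation tests. Same-numbered libraries deviated together (r = 0.57, 0.46, 0.43 and 0.39 for replicates 1 to 4) and were treated as pairs. No label states that libraries of the same number were made together. The pairing was thus read from the same values that the block fits use, and the block intervals hold only if it is real. GFP-FIB1 replicate 4 deviated more with CFP-FIB2 replicate 3 (0.53), and GFP-FIB1 replicate 3 with CFP-FIB2 replicate 4 at 0.32, so the number does not separate replicates 3 and 4. The alternatives were the replicate block, a term for 3 library sets (clusters by correlation over protein-coding genes, which for the 8 tagged libraries equals leaving out replicate 1), another scaling, pseudocount and filter, and leaving out libraries. Named genes are the leading snoRNA by mean, the regions without overlap that changed most, U3, H/ACA and fibrillarin-complex genes, plus genes added after values were seen. Members and lists were chosen with earlier results of these data known.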

Additional observations from a re-analysis of the deposited data

Results flagged for a closer look

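In 11 of 141 groups of 4 values, 1 library lay far from the other 3 (chance alone gives about 7.05). In GFP-FIB1 replicate 1 this concerned 6 named genes on the log2(RPM + 1) scale. AtsnoR29-1 stood at 6.03 there (12.06 to 13.01 in the other GFP-FIB1 libraries), AtsnoR4a at 6.38 (11.87 to 12.44) and AtsnoR34 at 7.44 (11.09 to 11.83). AT3G47348 stood at 4.00 (11.07 to 11.60) and U3D at 6.08 (10.35 to 10.66), while AT3G14360 was high, at 5.74 (3.17 to 3.37). The same library held 0.00348% miRNA (0.173% to 0.205% in the others) and 4.73% other annotated RNA (8.20% to 8.81%). GFP-FIB1 replicate 2 held 0.136% H/ACA snoRNA (0.0109% to 0.0189%). Among the GFP libraries, replicate 4 held 40.1% nuclear rRNA (55.6% to 56.5%), and replicate 3 had a median peak position of 67.3% of gene length (61.6% to 62.3%).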

How the results depend on the processing

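Every count of called regions, C/D genes or positions was 0 under every alternative run. The replicate block, which pairs the libraries, called 0 regions (smallest limma adjusted p 0.804) and changed no other call. No difference between the paralogs passed its threshold under any alternative, so a change of sign below is a change within the spread. By share of peaks in place of reads the differences (GFP-FIB1 minus CFP-FIB2) were 0.267 points for rRNA, 0.103 for tRNA, −0.000904 for miRNA and −1.84 for intergenic stretches. For H/ACA snoRNA it was 0.00130 outside organelles and rRNA and 0.000399 by position. TMM scaling moved the median of all features by −0.26 and gave medians of 0.12 for C/D and −0.15 for unassigned snoRNA. The H/ACA median was 0.53 with overlapping peaks reduced and 0.036 with the library set term. By gene, TMM gave −0.058 for AtsnoR29-1, −0.38 for AT3G47348, −0.14 for U3B, −0.31 for FIB2, −0.26 for NOP56 and −0.052 for SNOR108. A library set term gave 0.87 for AtsnoR43.6, 0.91 for AtsnoR43.1 and 0.010 for snoR144.

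Leaving out libraries changed the sign of these differences. In points or counts, the ranges were −0.0311 to 0.0272 for H/ACA, −7.48 to 1.63 for rRNA, −0.0107 to 0.0737 for miRNA, −1.06 to 2.53 for mitochondrial RNA, −0.607 to 3.56 for protein-coding RNA, −6.20 to 1.64 for 18S, −4.17 to 4.69 past 5.8S, −5.87 to 5.798 for the median position, −27908 to 5924 peaks and −24.4 to 8.25 snoRNA genes with a peak. In log2 they were −0.55 to 2.95 for AT3G47347, −0.53 to 2.101 for AtsnoR29-1, −1.35 to 1.04 for AtsnoR43.6, −0.072 to 2.16 for AtsnoR4a, −0.79 to 1.98 for AT3G47348, −1.43 to 0.91 for AtsnoR43.1, −0.25 to 1.72 for snoR121, −0.80 to 1.94 for U3B, −0.60 to 1.39 for FIB2, −1.03 to 1.48 for NOP56, −0.11 to 1.85 for U3D, −0.23 to 0.86 for SNOR108, −1.54 to 0.57 for snoR151, −0.36 to 1.51 for AtU65-2 and −2.54 to 0.12 for snoR144. The C/D median ran from −0.18 to 1.60. The cause of these changes was not tested. With 4 libraries a group the smallest exact p is 0.0286, and peak lists hold called peaks only, so an RNA below the caller's limit is not seen.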
